A study of Mus musculus with 12 samples.

Results

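Except for 2 annotated as pseudogenes, the genes described here encode proteins of the cytosolic ribosome. They were taken from the count table by name: symbols made of Rpl or Rps, a number and at most 1 further letter a, l or x, together with Rplp0, Rplp1, Rplp2 and Rpsa, and without pseudogenes marked -ps. The rule found 81 of 36512 genes, of which 49 are named for the large subunit and 32 for the small subunit. Messenger RNA of wild-type CD-1 mouse pups of both sexes had been measured at postnatal day 3, in cells that a flow cytometer took out of the digested aorta and the fat around it. Progenitor, intermediate, smooth muscle and preadipocyte are the 4 populations of the labels, each with 3 libraries. All of them carry the same genotype, strain and age and received no treatment that the labels record. The labels do not give the sorting gates, nor whether the libraries of a population came from separate litters, so the p-values rest on a spread between samples that may be technical.

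A cytosolic ribosome joins a small subunit, which reads the messenger RNA, to a large subunit, which forms the peptide bond, and each holds ribosomal RNA and 1 copy of most of its proteins. The proteins are needed in nearly equal numbers, and their genes are widely expressed and among the most strongly expressed of growing cells. Their messages typically begin with a C followed by an unbroken run of pyrimidines, the 5′ terminal oligopyrimidine (TOP) motif, through which mTOR signalling and the binding protein Larp1 set how much of them is translated. RNA sequencing measures the amount of these messages and not their translation.

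The starts of 9 members are shown because the results below turn on several of them, and because they let messages with and without a TOP-type start be compared. Each run is 30 bases of the GRCm38.p6 assembly from RefSeq, on the gene's own strand, from 10 bases before to 20 bases from the annotated start on. Capitals mark a C at the annotated start together with at least 4 pyrimidines that follow it without a break. Where a gene has several annotated starts, a window with such a run is shown if there is any.
Rplp2 (chr7:141447641-141447670, plus strand): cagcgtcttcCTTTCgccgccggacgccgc
Rpl35a (chr16:33056472-33056501, plus strand): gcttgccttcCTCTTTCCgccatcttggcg
Rps27 (chr3:90213629-90213658, minus strand): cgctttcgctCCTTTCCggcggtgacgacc
Rps6 (chr4:86857348-86857377, minus strand): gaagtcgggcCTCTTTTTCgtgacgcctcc
Rps18 (chr17:33955646-33955675, minus strand): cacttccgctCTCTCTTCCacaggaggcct
Rpl15 (chr14:18270967-18270996, minus strand): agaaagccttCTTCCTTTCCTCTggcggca
Rpl10 (chrX:74270806-74270835, plus strand): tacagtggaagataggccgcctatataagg
Rpl24 (chr16:55966265-55966294, plus strand): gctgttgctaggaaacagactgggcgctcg
Rpl41 (chr10:128549149-128549178, minus strand): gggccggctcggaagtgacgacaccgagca

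A gene was counted if any of its RefSeq start windows had such a start. This held for 14 of the 60 member genes with a window (23.3%) and for 813 of 27025 genes with a window (3.01%). By window the numbers were 14 of 72 (19.4%) and 823 of 32851 (2.51%). Rpl15 carried a run of 13 pyrimidines, Rps6 and Rps18 runs of 9, and Rplp2 a run of 5, while the annotated starts of Rpl10, Rpl24 and Rpl41 carried none. The match depends on the base at which the annotation places the start, and a window without one says only that these letters are not at that base. The median log2 change from progenitor to preadipocyte was 1.08 over the 14 members with such a start and 1.01 over the 44 tested members without one.

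Libraries held 11701825 to 17123109 counts, and 21285 genes had enough counts to be tested. Summed marker genes were highest in the population they are named for: summed counts per 1000000 after TMM scaling (CPM below) were 3071 to 3579 for 5 progenitor markers in progenitor libraries, 3036 to 4899 for 5 adipocyte lineage markers in preadipocyte libraries and 6763 to 7415 for 5 smooth muscle markers in smooth muscle libraries, against at most 681, 393 and 1177 elsewhere. Of the progenitor markers, Dpp4 was at 93.2 ± 5.34 CPM in progenitor and 76.6 ± 8.70 CPM in smooth muscle libraries, a difference that did not pass the test (adjusted p 0.259, edgeR), against 4.25 ± 1.28 CPM in intermediate libraries and 2.59 to 5.68 CPM in preadipocyte libraries. Other contents also moved with the populations. In smooth muscle libraries 4 Schwann cell and neuron markers summed to 432 to 578 CPM and 3 mesothelial markers to 682 to 990 CPM, against at most 73.9 and 134 in the other populations. Pericyte markers, 3 in number, summed to 1272 to 1466 CPM in smooth muscle and 812 to 949.6 CPM in intermediate libraries, against at most 205 CPM elsewhere. In preadipocyte libraries 4 red blood cell markers summed to 923 to 15141 CPM, against at most 277 elsewhere. Endothelial markers, 4 in number, summed to 127 to 147 CPM in progenitor libraries and at most 72.1 elsewhere, a difference carried by Tek. Pecam1 and Cdh5 were lower in progenitor libraries than in each other population, and Kdr than in smooth muscle libraries (adjusted p under 0.05, edgeR). Immune markers, 4 in number, summed to 45.9 to 62.2 CPM in intermediate libraries and at most 37.2 elsewhere. Cd3e was highest in intermediate libraries and Cd68 did not pass the F test. Ptprc and Adgre1 were highest in smooth muscle libraries (log2 change 3.35 and 4.22 from progenitor), though not every difference passed the test. Olfactory and vomeronasal receptor genes, 1149 in number, were summed per 1000000 counts of library size, without TMM scaling. The sums were 745 to 1078 in smooth muscle, 47.2 to 101 in progenitor, 39.2 to 199.6 in preadipocyte and 128 to 330 in intermediate libraries. Lars2, a mitochondrial leucine tRNA synthetase gene, took 1.19 to 2.15% of counts in smooth muscle, 0.203 to 0.376% in progenitor, 0.172 to 1.42% in preadipocyte and 1.03 to 1.58% in intermediate libraries. For both, every smooth muscle and intermediate library lay above every progenitor library, and in these populations ribosomal protein genes were lower than in progenitor libraries under TMM scaling. No gene of the cell type marker lists was at 0 counts over a whole population. The mitochondrial genome took 3.13 ± 0.495% of the counts of preadipocyte libraries (SD, n = 3) and 0.694 ± 0.0594% to 1.29 ± 0.102% of the others. The part of these contents in the results below was not tested.

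Ribosomal protein messages took the largest share of RNA in preadipocyte libraries. They were 4.02, 3.13 and 4.09% of all counts there, 1.45, 1.53 and 1.37% in progenitor libraries, 1.10, 1.17 and 1.46% in smooth muscle libraries and 0.898, 0.808 and 0.979% in intermediate libraries. Every preadipocyte library lay above every other library, every intermediate library lay below every other library, and the ranges of progenitor and smooth muscle libraries overlapped. The means were 3.75 ± 0.533%, 1.45 ± 0.0788%, 1.24 ± 0.193% and 0.895 ± 0.0854% (SD, n = 3) in the same order. In bulk RNA of this kind, fewer cells of a type and less RNA per cell cannot be told apart, and a share of counts does not give the amount per cell.

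A share of counts also depends on what else a library holds. The 20 most counted genes took 30.9 ± 0.532% of the counts in intermediate, 23.9 ± 0.440% in progenitor, 18.1 ± 0.621% in smooth muscle and 9.80 ± 1.20% in preadipocyte libraries. With those genes removed from each library the share of ribosomal protein messages was 4.16 ± 0.627% in preadipocyte, 1.90 ± 0.0951% in progenitor, 1.52 ± 0.237% in smooth muscle and 1.30 ± 0.119% in intermediate libraries. The preadipocyte mean was then 2.18 times the progenitor mean, against 2.59 times before the removal. TMM scaling assumes that most genes are level between libraries, while 79.8% of tested genes differed among the populations by edgeR's F test. Scaled with TMM, the members summed to 32699 ± 2824 CPM in preadipocyte, 16630 ± 928 in progenitor, 10605 ± 1034 in intermediate and 10567 ± 1791 in smooth muscle libraries. The order of the smooth muscle and progenitor libraries was therefore clear under TMM scaling, with no overlap, and not clear as a share of counts.

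**Figure D1:**
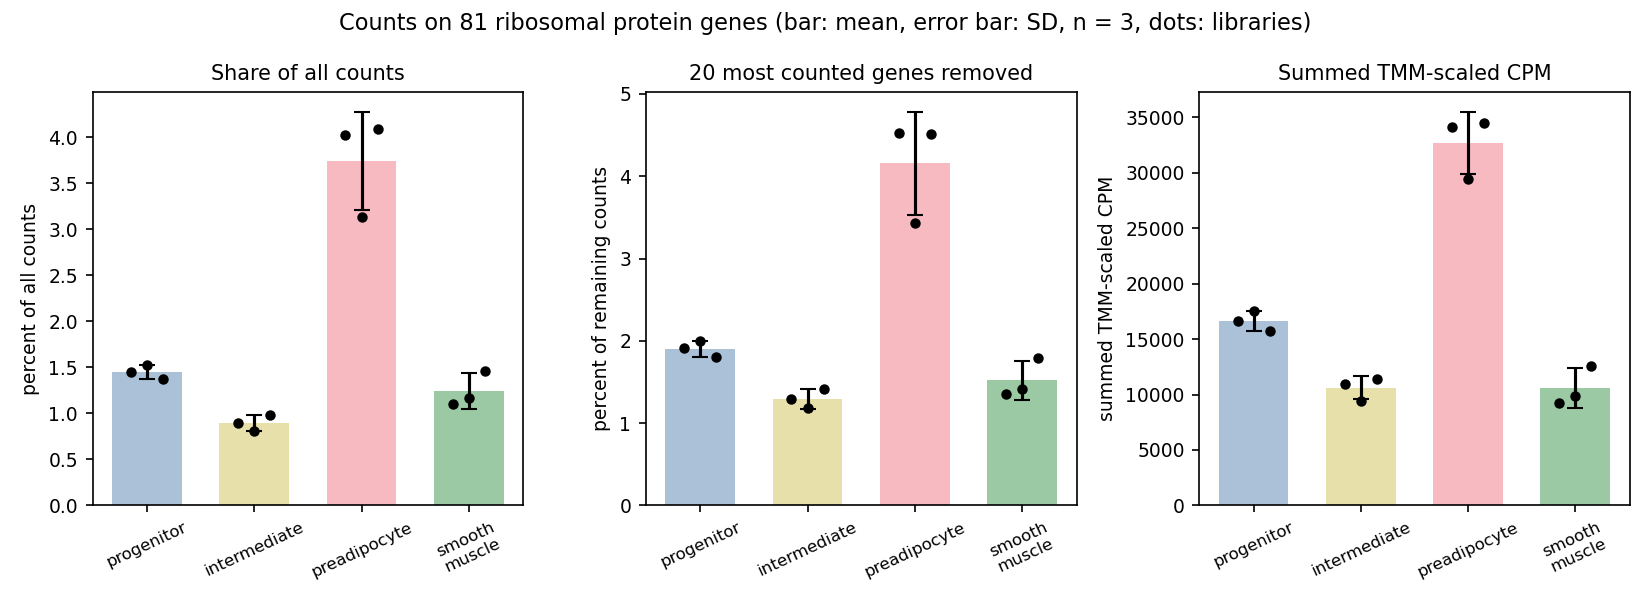
Counts on the 81 members in each library as a percent of all counts, as a percent of the counts left without the 20 most counted genes, and as summed TMM-scaled CPM. Bars are means of 3 libraries, error bars the SD and dots the libraries, and the preadipocyte bars stand highest in each panel, at 3.75%, 4.16% and 32699 CPM.

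Both subunits moved together. Genes named for the small subunit held 42.1 ± 0.252% of the members' counts in progenitor, 41.6 ± 0.324% in intermediate, 41.8 ± 0.384% in smooth muscle and 43.0 ± 0.538% in preadipocyte libraries. From progenitor to preadipocyte the median log2 change was 1.03 over 32 small-subunit members and 1.03 over 47 tested large-subunit members. By edgeR's quasi-likelihood test, 31 of the former and 46 of the latter rose at an adjusted p under 0.05. Of all tested genes 25.1% did.

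The members themselves spanned a wide range of levels. Per kilobase of transcript, the mean level over all libraries was 793 CPM for Rpl41, the smallest protein of the ribosome, and 737 for Rplp0, the base of the stalk that recruits elongation factors. It was under 35 CPM per kilobase for 9 members: Rpl39l, Rpl3l, Rpl24, Rpl32l, Rpl13a, Rpl23a, Rpl29, Rps4l and Rpl35. The count of a member depends on how reads shared with other genes were counted, which is not given in the sources used here. Of all 50-base words in a member's transcripts, a median of 34.5% also occurred in transcripts of other genes. The share was 81.7% for Rpl24, 82.6% for Rpl23a, 41.1% for Rpl13a and 35.1% for Rpl29. It was 84.6% for Rps6, whose level was 304 CPM per kilobase, so a large share did not always go with a low level. The table also holds 213 pseudogenes named after 57 of the members, and the exons of 37 members overlap another annotated gene. Levels of single members are uncertain to that extent, and the low levels of Rpl24, Rpl13a, Rpl23a and Rpl29 cannot be read as low expression. Named pseudogenes held 2.58 ± 0.178 counts for every 100 counts on members in progenitor, 2.72 ± 0.107 in intermediate, 2.96 ± 0.186 in smooth muscle and 2.64 ± 0.157 in preadipocyte libraries.

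Within a member, by contrast, the same order of populations recurred. By mean CPM, 78 of 81 members were highest in preadipocyte libraries and next highest in progenitor libraries. Every preadipocyte library lay above every other library for 76 members, a pattern that 18% of all tested genes showed. The exceptions were Rpl24, Rps27, Rps4l, Rpl3l and Rpl39l. Among the 4 populations 79 of the 79 tested members differed by the F test of edgeR, where 79.8% of all tested genes did, with adjusted p-values from 1.82e-09 for Rpl35a to 0.0223 for Rpl24.

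**Figure D2:**
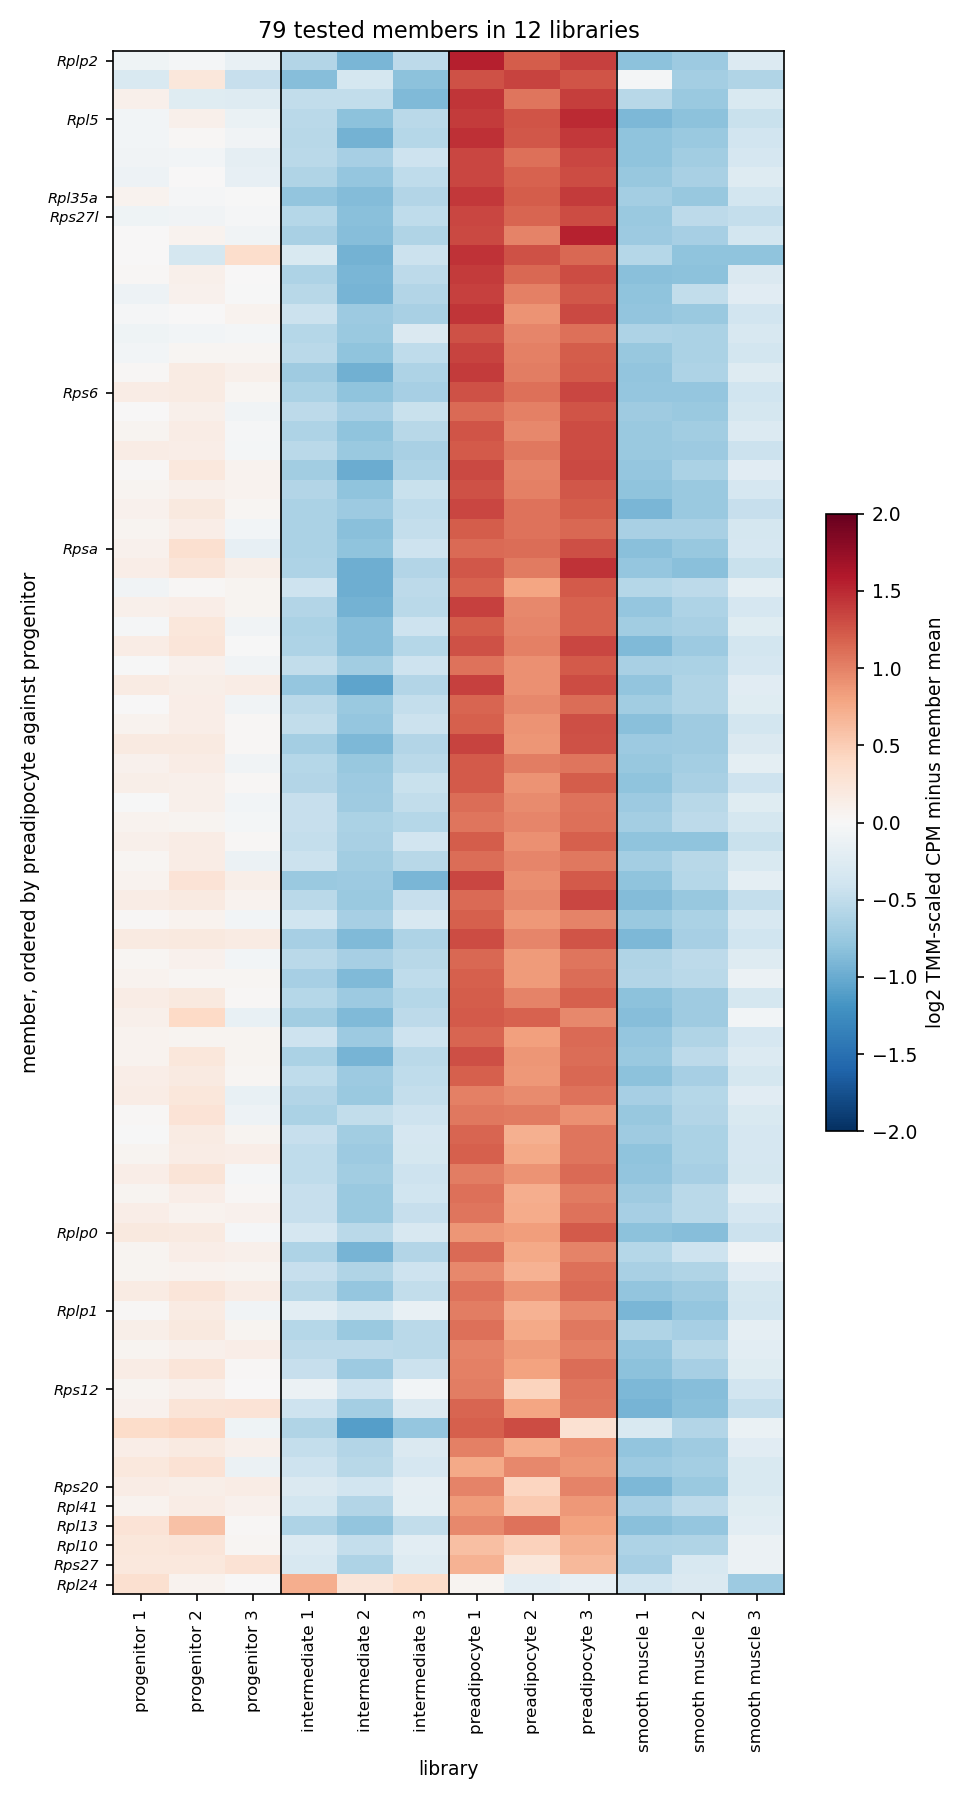
Log2 TMM-scaled CPM of the 79 tested members in the 12 libraries, less each member's mean over the libraries, with members ordered by their change from progenitor to preadipocyte and some of them named. Red is above and blue below a member's mean, and the 3 preadipocyte columns are red for nearly all members, with Rpl24 in the bottom row as the clearest exception.

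From progenitor to preadipocyte libraries, 77 of 79 members rose and 0 fell, with a median log2 change of 1.03, where 25.1% of all tested genes rose and the median gene changed by 0.04. The summed CPM of the members was 1.97 times as high. Rplp2 had the largest rise. This acidic protein of the stalk (chromosome 7, 141447370 to 141451585, mm10) stood at 135, 139 and 129 CPM in progenitor libraries and 421, 331 and 371 CPM in preadipocyte libraries, with no overlap. Its log2 change was 1.48 (SE 0.16, adjusted p 1.22e-06, edgeR). The stalk base Rplp0 rose less, from 643, 641 and 558 CPM to 1044, 1006 and 1323 CPM, a log2 change of 0.87 (SE 0.15, adjusted p 0.000124).

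Rps6, Rpsa, Rps18 and Rpl13a rose as well. Rps6, the small-subunit protein that S6 kinase phosphorylates downstream of mTOR, was at 251, 254 and 234 CPM in progenitor and 549, 487 and 570.2 CPM in preadipocyte libraries. Its log2 change was 1.12 (SE 0.13, adjusted p 2.59e-06). Rpsa, also known as the laminin receptor precursor, went from 524, 619 and 444 CPM to 1084, 1074 and 1216 CPM, a log2 change of 1.09 (SE 0.16). Rps18 of the small-subunit head had a log2 change of 1.09 (SE 0.15). Rpl13a, which has a known function in translational silencing after its release from the ribosome, rose by 1.43 (SE 0.21) from 4.46 ± 0.639 to 12 ± 1.54 CPM, with few counts and shared sequence.

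The rises were smallest for Rpl10, Rpl13 and Rpl41 among members that passed the test. Rpl10, which joins the large subunit late in its assembly, was at 492, 500.3 and 435 CPM in progenitor and 635, 581 and 687 CPM in preadipocyte libraries. The libraries did not overlap, and the log2 change was 0.42 (SE 0.15, adjusted p 0.0252). Rpl13 changed by 0.65 (SE 0.18) and Rpl41 by 0.65 (SE 0.14).

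Rps27 and Rpl24 did not pass the test. Rps27, a small-subunit protein with a zinc finger, was at 221, 222 and 235 CPM in progenitor and 311, 225 and 302 CPM in preadipocyte libraries. Preadipocyte replicate 2 lay within the range of the progenitor libraries, and the log2 difference was 0.31 (SE 0.16, adjusted p 0.122). Rpl24, a large-subunit protein that reaches into a bridge to the small subunit, was at 3.49, 2.94 and 2.81 CPM in progenitor and 2.92, 2.42 and 2.51 CPM in preadipocyte libraries. These ranges overlapped and the log2 difference was -0.23 (SE 0.24, adjusted p 0.451).

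Intermediate libraries were lower than progenitor libraries for most members: 72 of 79 fell and 0 rose, with a median log2 change of -0.65, where 13.4% of all tested genes fell and the median gene changed by 0.05. The summed CPM was 0.638 times that of progenitor libraries. Rps6 was at 146, 130.1 and 144 CPM in intermediate libraries, all below the progenitor libraries, and fell by 0.82 on the log2 scale (SE 0.13, adjusted p 0.000306). Rps18 fell by 0.88 (SE 0.15), Rpsa by 0.70 (SE 0.16) and Rplp0 by 0.52 (SE 0.15). Among called members the largest fall was that of Rps4l, annotated as a pseudogene, at -1.06 (SE 0.24). Next were Rpl35, a protein near the exit of the peptide tunnel, at -0.95 (SE 0.17), and Rps26 at -0.93 (SE 0.17). Rps26 lies near the exit of the messenger RNA channel. The smallest falls were those of Rps16 at -0.44 (SE 0.14), Rpl29 at -0.46 (SE 0.16) and Rpl28 at -0.46 (SE 0.14). The 7 members that did not pass were Rpl23a, Rpl32l, Rpl13a, Rps20, Rplp1, Rps12 and Rpl24, whose differences ran from -0.57 for Rpl23a to 0.32 for Rpl24.

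The difference was larger between preadipocyte and intermediate libraries. Of 79 members, 78 were higher in preadipocyte libraries and 0 lower, with a median log2 difference of 1.70, where 26% of all tested genes were higher and the median gene differed by -0.24. Rpl35a, a large-subunit protein, had 261, 225 and 257 CPM in preadipocyte and 56.7, 53.5 and 64.9 CPM in intermediate libraries, a log2 difference of 2.09 (SE 0.13, adjusted p 3.56e-09). Rplp2 differed by 2.06 (SE 0.16). Rpl10 at 0.90 (SE 0.15), Rps27 at 0.93 (SE 0.16) and Rps12 at 1.06 (SE 0.18) differed least among members that passed, and Rpl24 did not pass.

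Smooth muscle libraries were lower than progenitor libraries under TMM scaling for 75 of 79 members and higher for 0, with a median log2 change of -0.62, where 23.6% of all tested genes were lower and the median gene changed by 0.09. Rps28, a small-subunit protein, was lowest relative to progenitor at -0.94 (SE 0.15, adjusted p 0.000118), followed by Rpl13 at -0.89 (SE 0.18) and Rps18 at -0.84 (SE 0.15). Rpl30, Rpl37a and Rpl37 changed least among called members, at -0.42 (SE 0.17), -0.43 (SE 0.15) and -0.45 (SE 0.15). Against preadipocyte libraries, 78 of 79 members were lower in smooth muscle libraries and 0 higher, with a median of -1.68. There 25.9% of all tested genes were lower and 40.7% higher, and the median gene differed by 0.35. Rpl5, which carries the 5S RNA into the large subunit and can bind Mdm2, was at 106, 112 and 146 CPM in smooth muscle and 522, 474 and 559 CPM in preadipocyte libraries. Its log2 difference of -2.09 (SE 0.15, adjusted p 9.64e-09) was the largest, ahead of Rpl23a at -2.02 (SE 0.22). The smallest called differences were -0.89 (SE 0.16) for Rps27, -1.02 (SE 0.15) for Rpl10 and -1.22 (SE 0.15) for Rpl41.

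Smooth muscle and intermediate libraries were close under TMM scaling. The median log2 difference over members was 0.04, 3 of 79 members were lower in smooth muscle libraries and 0 higher, where 13.1% of all tested genes were lower and 15.7% higher. The 3 were Rpl24 at -0.91 (SE 0.25, adjusted p 0.0125), Rps12 at -0.51 (SE 0.18, adjusted p 0.0401) and the stalk protein Rplp1 at -0.43 (SE 0.15, adjusted p 0.044). Without intermediate replicate 2 there were 7 lower members, and without smooth muscle replicate 1 or 2 there was 1. Without progenitor replicate 2, which TMM takes as its reference, there were 6. Shares of all tested genes without these libraries are not reported here, so a shift of the members alone cannot be told from a general one. Rps6 stood at 132, 133 and 172 CPM in smooth muscle libraries, which overlap the intermediate range, and differed by 0.06 (SE 0.13). Smooth muscle replicate 3 had the highest level of its population for 76 of 81 members and for 38.2% of all tested genes.

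**Figure D3:**
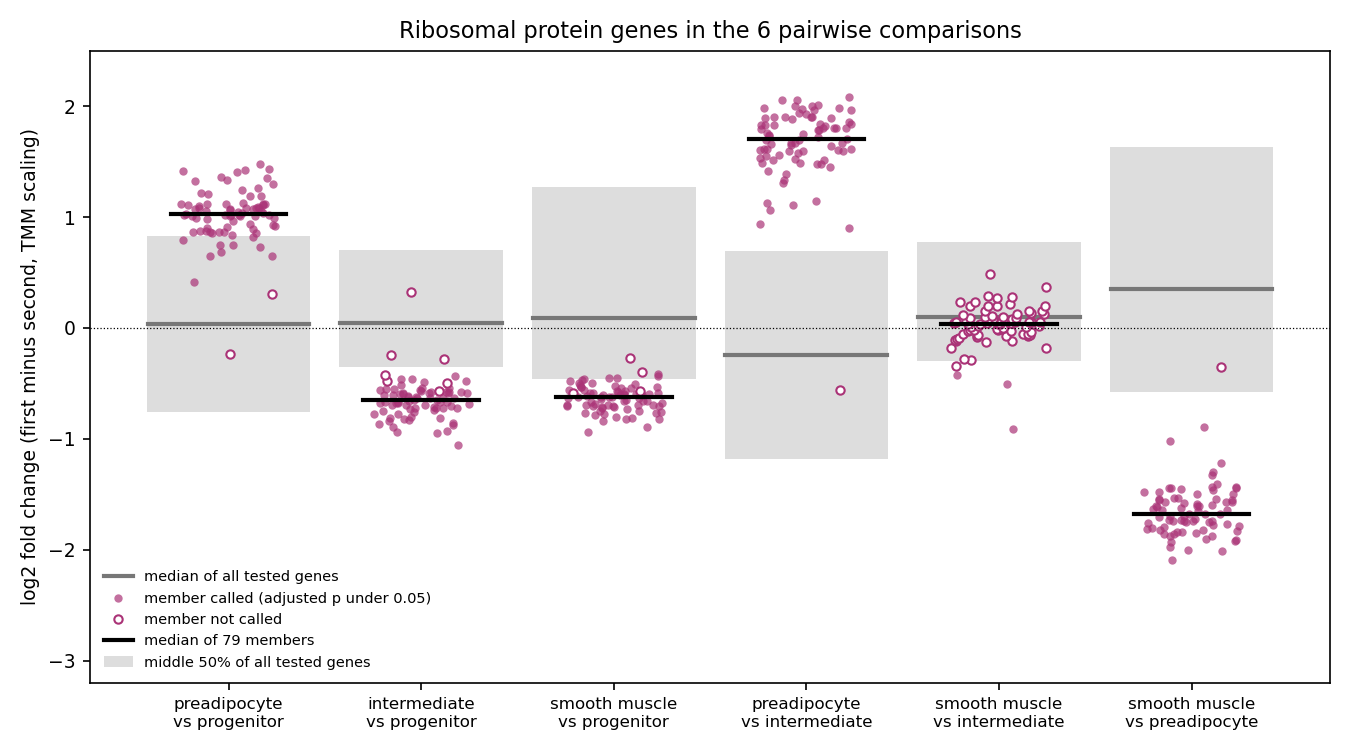
Log2 fold changes of the 79 tested members (dots, filled where the adjusted p was under 0.05) in the 6 pairwise comparisons, with their median (black line), and the median and middle 50% of all tested genes (grey). Members lie in narrow bands at medians of 1.03, -0.65, -0.62, 1.70, 0.04 and -1.68 from left to right.

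How far smooth muscle libraries differed from progenitor and intermediate libraries depended on the scaling. By library size alone, 9 members were lower in smooth muscle than in progenitor libraries, with a median of -0.18, and 68 were higher in smooth muscle than in intermediate libraries, with a median of 0.52. All tested genes moved in the same way: the median gene was 0.53 higher in smooth muscle than in progenitor libraries and 0.58 higher than in intermediate libraries by library size alone. Under that scaling 45.5% of all tested genes were higher and 9.47% lower in smooth muscle than in progenitor libraries, against 30.5% and 23.6% under TMM, and 43.8% were higher and 5.32% lower than in intermediate libraries. Relative to the median tested gene, the members' difference between smooth muscle and progenitor libraries was -0.71 both under TMM and by library size alone. Between smooth muscle and intermediate libraries the same difference was -0.06 under both. A scaling shifts every gene of a comparison by nearly the same amount, so such agreement holds by construction.

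Comparisons with preadipocyte libraries kept their direction under each of the scalings run. By library size alone 78 members were higher than in progenitor libraries, with a median of 1.42, when the median gene was higher by 0.43 and 36.9% of tested genes rose and 17.7% fell, against 25.1% and 25.9% under TMM. Relative to the median tested gene the difference was 0.99 in both cases, again by construction. The choice of the library that TMM takes as its reference moved the median from 0.99 to 1.27 for preadipocyte against progenitor and from -0.91 to -0.61 for smooth muscle against progenitor. Between intermediate and progenitor libraries the median was -0.69 by library size alone and -0.58 with upper quartile scaling.

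**Figure D4:**
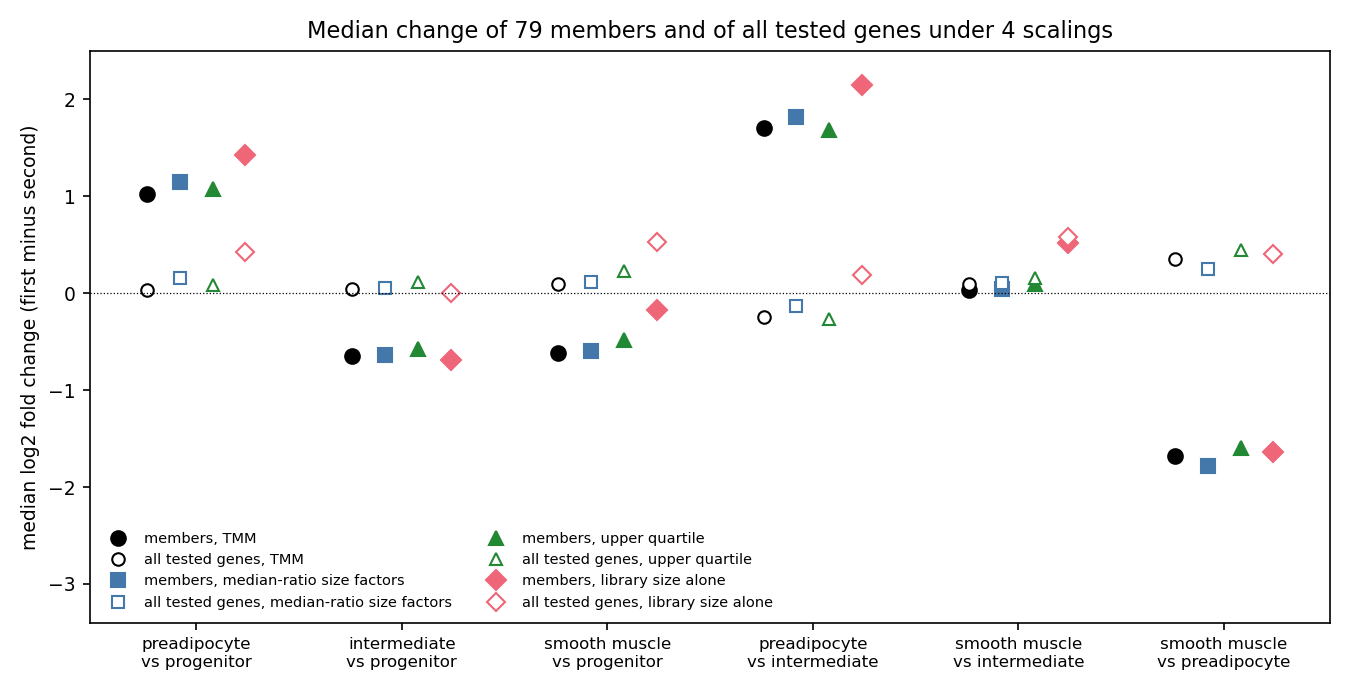
Median log2 fold change of the 79 tested members (filled) and of all tested genes (open) in the 6 comparisons under TMM, median-ratio size factors, upper quartile scaling and library size alone. Filled and open symbols shift together between scalings by construction. For smooth muscle against progenitor the members move from -0.62 under TMM to -0.18 by library size alone. All genes move from 0.09 to 0.53.

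How much sequence a member shares with other genes was set beside its change. Over the 6 tested members with under 10% of their words in other genes, among them Rps3 and Rpl8, 6 rose from progenitor to preadipocyte, with a median of 0.98. Of the 20 members with at least 50% of their words shared, 19 rose, with a median of 1.01. In that comparison 25.1% of all tested genes rose. Between smooth muscle and intermediate libraries, the 3 members called lower were all among those 20 and 0 were among the 6. Of all tested genes 13.1% were lower there. The difference between these classes was not tested.

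To ask which members departed from the family, each was tested against the summed counts of all members in place of the library size. With p-values adjusted over all tested genes, of which 89.8% differ from the members' total among populations, 11 of 79 members differed. In preadipocyte relative to progenitor libraries, 7 members were above the family's change (6.92% of all tested genes were) and 4 were below it (52.7% were), members outside the 11 included.

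Members that took a smaller part of the family in preadipocyte libraries included Rpl10, Rps27, Rpl41 and Rpl24. Rpl10 was 2.96, 2.85 and 2.77% of all member counts in progenitor, 3.20, 3.20 and 3.19% in intermediate, 2.98, 2.82 and 3.06% in smooth muscle and 1.86, 1.97 and 1.99% in preadipocyte libraries. Every preadipocyte library lay below all others, with a log2 difference from progenitor of -0.56 (SE 0.13, adjusted p 0.00177, edgeR) relative to the family. Rps27 made up 1.36 ± 0.121% of member counts in progenitor, 1.38 ± 0.0445% in intermediate, 1.42 ± 0.125% in smooth muscle and 0.850 ± 0.0770% in preadipocyte libraries (SD, n = 3), with a relative difference of -0.68 (SE 0.15, adjusted p 0.000921). Rpl41 went from 2.54 ± 0.0904% in progenitor to 2.02 ± 0.0848% in preadipocyte libraries, a relative difference of -0.33 (SE 0.13, adjusted p 0.0431). Rpl24, with 24 to 54 counts a library and most of its sequence shared, was -1.21 (SE 0.28, adjusted p 0.0014) relative to the family in preadipocyte against progenitor libraries, and its exons overlap those of Gm28037. It also took a larger part in intermediate libraries, at 0.0364 ± 0.00544% of member counts against 0.0186 ± 0.00221% in progenitor libraries, a relative difference of 0.97 (SE 0.28, adjusted p 0.0112), and every intermediate library lay above all others.

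Members that took a larger part in preadipocyte libraries included Rplp2, Rpl5 and Rpl35a. Rplp2 was 0.810, 0.792 and 0.819% of member counts in progenitor, 0.870, 0.801 and 0.868% in intermediate, 0.872, 0.873 and 0.941% in smooth muscle and 1.23, 1.12 and 1.07% in preadipocyte libraries. All preadipocyte libraries lay above all others, and the relative log2 difference from progenitor was 0.50 (SE 0.14, adjusted p 0.00574). Rpl5 had 1.59 ± 0.0504% of member counts in preadipocyte and 1.15 ± 0.0114% to 1.21 ± 0.0314% in the other populations, a relative difference from progenitor of 0.44 (SE 0.13, adjusted p 0.00981). For Rpl35a this difference was 0.36 (SE 0.14, adjusted p 0.0437).

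Rplp1 and Rps12 set the intermediate libraries apart. Rplp1, the partner of Rplp2 in the stalk, was 1.70, 1.76 and 1.69% of member counts in intermediate libraries, 1.31, 1.37 and 1.30% in progenitor, 1.27, 1.18 and 1.22% in preadipocyte and 1.23, 1.28 and 1.33% in smooth muscle libraries. Every intermediate library lay above all others, with a relative difference from progenitor of 0.37 (SE 0.14, adjusted p 0.0342). Within the stalk the highest part of the family was thus in preadipocyte libraries for Rplp2 and in intermediate libraries for Rplp1. Rps12, a small-subunit protein known from flies for a part in cell competition, was 1.03 ± 0.0322% in intermediate libraries and 0.691 ± 0.0996% to 0.777 ± 0.0201% in the others, a relative difference from progenitor of 0.40 (SE 0.15, adjusted p 0.0398). Rps20 was 1.33 ± 0.0542% in intermediate and 0.920 ± 0.121% in preadipocyte libraries, which differed by -0.53 relative to the family (SE 0.15, adjusted p 0.00437). Next in order, Rpl37a was 1.94 ± 0.0447% in smooth muscle and 1.5 ± 0.0526% to 1.67 ± 0.0936% in the other populations, and its adjusted p over the 4 populations was 0.0697.

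**Figure D5:**
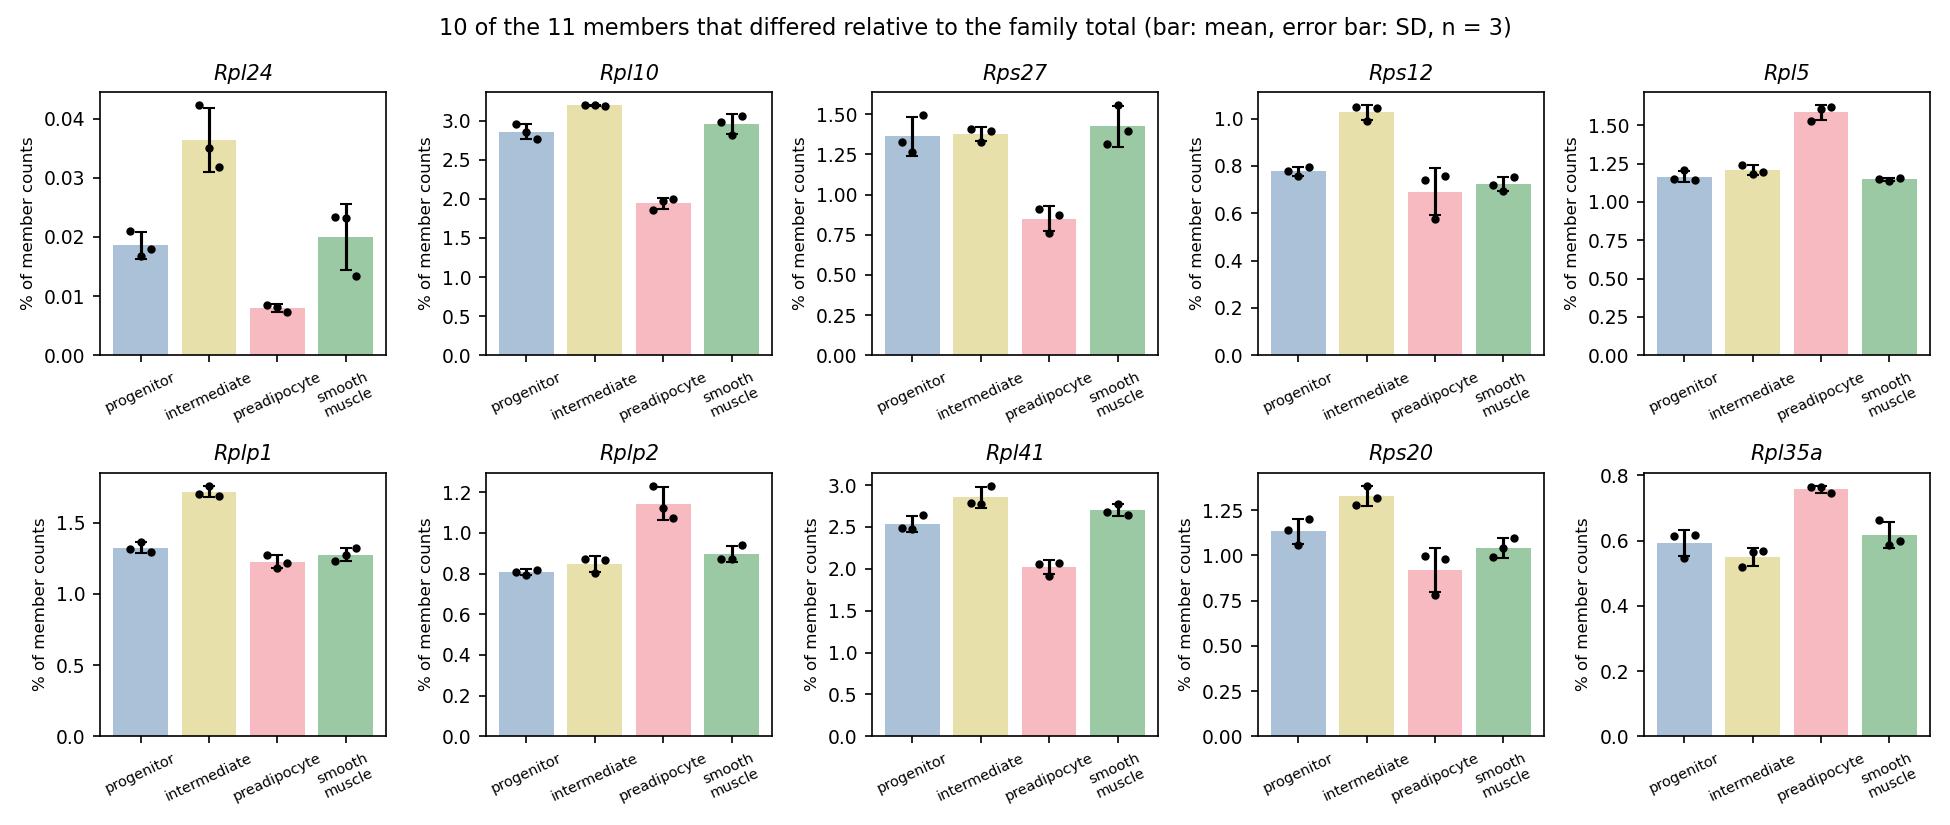
Percent of all member counts taken by 10 of the 11 members that differed relative to the family total (bars: mean, error bars: SD, n = 3, dots: libraries). Preadipocyte bars are lowest for Rpl24, Rpl10, Rps27, Rpl41, Rps12, Rplp1 and Rps20 and highest for Rpl5, Rplp2 and Rpl35a, and intermediate bars are highest for Rpl24, Rpl10, Rpl41, Rps12, Rplp1 and Rps20.

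The name rule also found relatives of widely expressed members. Rpl3l, the muscle relative of Rpl3, had 2 to 10 counts a library (0.255 ± 0.0913 to 0.460 ± 0.161 CPM by population), and Rpl39l, the relative of Rpl39 used in male germ cells, had 0 to 4 counts, so both were too low to test. Their counterparts Rpl3 and Rpl39 reached 768 ± 84.6 and 269 ± 33.3 CPM in preadipocyte libraries from 365 ± 19.4 and 116 ± 7.88 CPM in progenitor libraries. Rps27l, a relative of Rps27 that p53 induces, was at 129, 131 and 135 CPM in progenitor, 92.1, 76.4 and 96.6 CPM in intermediate, 347, 308 and 337 CPM in preadipocyte and 82.2, 95.0 and 98.8 CPM in smooth muscle libraries. Preadipocyte libraries stood far above the others, and the log2 change from progenitor was 1.33 (SE 0.12, adjusted p 2.7e-07), whereas that of Rps27 was 0.31 (SE 0.16). The difference between these changes was not tested.

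Rpl32l and Rps4l are annotated as pseudogenes in GENCODE M21. Rpl32l was at 4.64, 4.90 and 4.62 CPM in preadipocyte and 1.55, 2.26 and 1.41 CPM in progenitor libraries, a log2 change of 1.43 (SE 0.28), next to 471 ± 55.8 and 234 ± 2.82 CPM for Rpl32. Rps4l was at 47.5, 51.1 and 25.5 CPM in preadipocyte and 26.7, 27.6 and 19.5 CPM in progenitor libraries, which overlap, with a log2 change of 0.75 (SE 0.23, adjusted p 0.0134). Of its counterpart Rps4x, 668 ± 71.4 and 374 ± 27.3 CPM were measured in the same populations.

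Gene lists around the ribosome were counted in the same way. Of all tested genes, 25.1% rose and 25.9% fell from progenitor to preadipocyte, 14.1% rose and 13.4% fell to intermediate, and 30.5% rose and 23.6% fell to smooth muscle libraries, and no list was tested as a whole.

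Of the ribosomal genes whose names fall outside the rule, 9 were listed. From progenitor to preadipocyte 7 of 9 rose and 0 fell, with a median log2 change of 0.90. Rack1, a signalling scaffold on the small subunit, went from 328 ± 29.1 to 801 ± 90.4 CPM (log2 change 1.29, SE 0.16, adjusted p 4.98e-06), Fau, which encodes a small-subunit protein fused to a ubiquitin-like one, by 1.02, and Rps3a1 by 0.83. Rpl36al at 1.72 ± 0.414 and 1.23 ± 0.258 CPM and Rps27rt did not pass the test. From progenitor to intermediate 0 rose and 6 fell, and from progenitor to smooth muscle 0 rose and 6 fell.

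Most factors that build ribosomes also rose. Of 52 such genes, 48 rose and 0 fell from progenitor to preadipocyte, with a median log2 change of 1.03, where 25.1% of all tested genes rose. Dkc1, Nhp2 and Nop10 belong to the particle that converts uridines of ribosomal RNA to pseudouridine. Nhp2 stood at 40.6, 46.0 and 33.3 CPM in progenitor, 28.6, 23.4 and 23.3 CPM in intermediate, 197, 198 and 199.8 CPM in preadipocyte and 23.1, 18.6 and 24.4 CPM in smooth muscle libraries. Its preadipocyte libraries were far above all others, with a log2 change of 2.31 from progenitor, against 1.99 for Dkc1 and 1.54 for Nop10. From progenitor to intermediate 0 rose and 29 fell (median -0.45), and from progenitor to smooth muscle 1 rose and 40 fell (median -0.55).

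Translation factors rose in part. Of 12 elongation factor genes, 8 rose and 0 fell from progenitor to preadipocyte (median 0.82), among them Eif5a, the factor that carries hypusine (1.18), and Eef1d (1.09) and Eef1g (1.0), which reload elongation factor 1A with GTP. Of 36 initiation factor genes, 30 rose and 2 fell (median 0.73), among them Eif2b1 (1.17), a part of the exchange factor for eIF2, and the eIF3 subunits Eif3i (0.96) and Eif3l (1.10). From progenitor to smooth muscle 2 elongation factor genes rose and 7 fell, and 2 initiation factor genes rose and 21 fell.

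Other messages known for a TOP motif rose in 21 of 28 cases and fell in 3, with a median of 0.58. Among all tested genes 25.1% rose and 25.9% fell in that comparison. This list shares genes with the translation factor lists. Npm1, a nucleolar chaperone, rose by 1.35 and the RNA-binding protein Hnrnpa1 by 1.47. From progenitor to intermediate 1 rose and 17 fell, and from progenitor to smooth muscle 0 rose and 18 fell.

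Regulators of ribosome production did not move one way. Of 25 genes, 11 rose and 4 fell from progenitor to preadipocyte, where 25.1% of all tested genes rose and 25.9% fell. Eif4ebp1, a repressor of cap-dependent translation that mTOR switches off, stood at 109 ± 8.41 CPM in progenitor, 208 ± 36.2 in preadipocyte, 84.6 ± 12.6 in intermediate and 49.5 ± 3.09 in smooth muscle libraries. Larp4, which binds messenger RNA and its poly(A) tail, rose by 0.85 from progenitor to preadipocyte. Mycn, a transcription factor of the Myc family, was at 24.4, 28.5 and 27.5 CPM in smooth muscle libraries, above the 5.90 to 9.18 CPM of preadipocyte libraries and the levels of the other populations. Its log2 change from progenitor to smooth muscle was 3.04. Myc, of the same family and with more counts, was at 319 ± 14.5 CPM in progenitor, 212 ± 46.4 in preadipocyte, 161 ± 30.4 in smooth muscle and 104 ± 0.344 in intermediate libraries. Progenitor libraries thus held the most Myc and smooth muscle libraries the most Mycn. Smooth muscle libraries also held the most of the neuron markers Dbh and Stmn2, at log2 changes of 8.49 and 8.35 from progenitor. The part of such contents in the level of Mycn was not tested.

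Cell division genes, listed because dividing cells make ribosomes, were higher in preadipocyte than in progenitor libraries for 16 of 16 genes, with a median log2 change of 2.08. They summed to 2710 to 4930 CPM in preadipocyte and to 739 to 1107 CPM in the other populations. Rrm2, a subunit of ribonucleotide reductase, rose by 2.99, and Birc5, the chromosome passenger protein survivin, by 2.43. Of these genes 3 rose and 0 fell from progenitor to intermediate and 4 rose and 0 fell from progenitor to smooth muscle, where 14.1% and 30.5% of all tested genes rose. The part of cell division in the level of the ribosomal protein genes was not tested.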

How the data were processed

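Poly(A) RNA of 12 sorted samples was amplified with SMART-Seq v4, per the labels' protocols. The submitters' processing notes name STAR 2.5.2a, DESeq2 1.26.0 and mm10. How reads were counted, on which annotation and with what use of strand, is not given in the sources used here. Deposited by the authors were whole-number counts per gene, a normalized signal (counts divided by 1 median-ratio size factor per library) and log2 values. Tests used the deposited counts, and the other tables served as checks.

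Genes were filtered with filterByExpr, scaled with TMM and tested in 1 model over 12 libraries with edgeR 4.0.16 (R 4.3.3, glmQLFit and glmQLFTest). Two-sided p-values over 21285 genes were adjusted after Benjamini and Hochberg, and calls made at 0.05. The family test set the effective library size to the summed member counts. Levels are CPM after TMM scaling. SE is that implied by the F statistic. The common biological coefficient of variation was 0.2. No replicates agreed within sampling noise. The chi-square per degree of freedom was 34.4 to 70.9 between preadipocyte replicates and 3.92 to 11.3 between those of the other populations. Preadipocyte replicates thus agreed least, while the model took 1 spread per gene over all populations. The limit that a count of 0 allows was 0.175 to 0.256 CPM by library size, which covers counting error alone as there were no molecular identifiers. Simulated counts served to check the tests.

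Positions and biotypes came from GENCODE M21 on mm10, which named 36480 gene identifiers. Start windows came from RefSeq (GRCm38.p6). Members and lists were chosen with earlier results of these data known. Named with values were, in each comparison, the 3 called members with the largest and the 3 with the smallest change, the 12 with the smallest p in the family test, Rplp0, Rpsa, Rps6, Rpl13a and Rps18, tissue-restricted relatives with their counterparts, and up to 3 genes a list. Some members that this rule names are not reported here. Rpl15, Rps3, Rpl8, Myc, Dpp4 and Lars2 and the members with the highest and lowest levels were chosen after their values were seen.

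Alternatives were library size alone, upper quartile scaling and median-ratio size factors in edgeR, the tool DESeq2 1.42.0, a minimum of 5 CPM in 3 libraries or no filter, the compared groups alone, a replicate block, each library left out, named pseudogene counts added, and members or relatives left out. Shared-word limits, removal of the 20 most counted genes and other TMM reference libraries were added after seeing the data.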

Additional observations from a re-analysis of the deposited data

How the results depend on the processing

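The calls that involve preadipocyte libraries, those between intermediate and progenitor libraries, and the 79 members that differed among populations stayed within 1.5 times their counts under each alternative run; those between smooth muscle and the other 2 populations did not. By library size alone 9 members were lower in smooth muscle than in progenitor libraries, and 68 were higher and 0 lower in smooth muscle than in intermediate libraries; the medians were -0.18 and 0.52, against 1.42 for preadipocyte against progenitor and 2.14 against intermediate. In the comparison of smooth muscle with intermediate, upper quartile scaling gave 1 higher and 1 lower, no low-count filter 6 lower, at least 5 CPM in 3 libraries 1 higher and 0 lower, and the compared groups alone 1 higher and 6 lower. Of all tested genes, 15.7% were higher and 13.1% lower under TMM, and 43.8% and 5.32% by library size alone. Shares under the other settings are not reported here. Reversed by library size alone were Rpl30 (0.026) and Rpl37a (0.0079) in smooth muscle against progenitor, and Rplp1 (0.0595) and Rpsa (0.47) against intermediate. Other TMM reference libraries moved the medians to 1.27 for preadipocyte against progenitor, 1.91 against intermediate, -0.91 for smooth muscle against progenitor and -1.93 against preadipocyte. The cause of these shifts was not tested beyond the shift of all tested genes given with the results.

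With each library left out in turn, medians ranged from 0.98 to 1.10 for preadipocyte against progenitor, -0.89 to -0.65 for intermediate against progenitor, -0.98 to -0.54 for smooth muscle against progenitor, 1.68 to 1.91 for preadipocyte against intermediate, -0.26 to 0.11 for smooth muscle against intermediate and -2.0 to -1.57 for smooth muscle against preadipocyte. The reversal to -0.26 came without intermediate replicate 2. Members lower in smooth muscle than in intermediate libraries ranged from 1 to 7 and higher ones from 0 to 1, and members that differed relative to the family from 8 to 16. Shares of all tested genes with a library left out are not reported here. Leaving out the 5 most counted members lowered the share of counts to 1.19% in progenitor, 0.740% in intermediate, 1.04% in smooth muscle and 3.14% in preadipocyte libraries, by construction, and without the 20 most counted genes of each library it was 1.90, 1.30 and 1.52% in progenitor, intermediate and smooth muscle libraries. Among single genes named, 1713 results under alternatives kept direction and side of the threshold, 29 newly passed it, 73 no longer did and 4 reversed.

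The labels do not say whether replicate numbers pair the samples. After removal of population means, same-numbered libraries correlated at -0.163 to 0.207 (6 of 18 pairs over 0.1). Differently numbered ones correlated at -0.262 to 0.288 (7 of 36 over 0.1). With 3 libraries a population, such correlations cannot exclude pairing. With the number as a replicate block 77, 72 and 75 members were called against progenitor in preadipocyte, intermediate and smooth muscle libraries, 78, 3 and 78 in the other comparisons and 11 relative to the family, and 79 differed among populations. Shares of all tested genes with that block are not reported here. Members with few counts, such as Rpl24 with 24 to 54 a library, are limited by depth.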
